A study of Homo sapiens with 79 samples.

Results

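Poly(A)-binding protein (PABP) was immunoprecipitated from K562 cells, a human erythroleukemia line, by formaldehyde RNA immunoprecipitation followed by sequencing (fRIP-Seq), and the RNA recovered was compared with the RNA of the input lysate. Members were chosen by label: the 3 PABP fRIP libraries and the 3 libraries of input set 3, which are 6 of the 79 libraries of the study, with the 9 libraries of all 3 input sets as a check. All libraries came from untreated K562 cells grown in RPMI medium with serum, cross-linked with formaldehyde, frozen, lysed in RIPA buffer and sonicated. The PABP libraries used an Abcam antibody, and each input was lysate set aside before the beads and antibody were added. RNA was total RNA depleted of rRNA, with no selection on poly(A) tails. A mock immunoprecipitation without the PABP antibody was not analysed here, so recovery by PABP and recovery that any antibody and bead would give cannot be told apart. Since K562 is a single cultured line, the results describe that line only, and because these are bulk libraries, fewer cells with an RNA and less of it per cell cannot be told apart.

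The cytoplasmic poly(A)-binding proteins coat the poly(A) tail that is added to most messenger RNAs after cleavage at a poly(A) signal. Through contacts with the initiation factor eIF4G at the cap they help translation, and through contacts with the CCR4-NOT and PAN2-PAN3 complexes they take part in the shortening of the tail. Some abundant RNAs have no poly(A) tail. Among them are the mRNAs of the replication-dependent histones, which end just after a conserved stem-loop, the RNAs of RNA polymerase III, and MALAT1, whose end is a triple helix.

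The 3′ ends are shown here because histone transcripts are sorted by them below. The following genomic sequences of hg19 are the last bases of histone transcripts that end at the stem-loop, written to the annotated end with the stem and loop in capitals.
HIST1H1B (chr6:27834570-27834595, minus strand): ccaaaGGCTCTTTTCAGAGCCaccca
HIST2H2AC (chr1:149858936-149858961, plus strand): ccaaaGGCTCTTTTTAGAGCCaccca
HIST1H4J (chr6:27792232-27792258, plus strand): taaaaGGCCCTTTTCAGGGCCacccta
HIST1H2AC, short transcript (chr6:26124892-26124918, plus strand): ccaaaGGCTCTTTTCAGAGCCccccta
HIST1H2BD, short transcript (chr6:26158810-26158835, plus strand): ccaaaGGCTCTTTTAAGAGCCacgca
In each of them a stem of 6 base pairs closes a loop of 4 bases, and the transcript ended 5 or 6 bases after it. The next sequences are the last 30 bases of transcripts that end after a poly(A) signal, with the hexamer AATAAA in capitals. They include the long transcripts of the same 2 histone genes.
HIST1H2AC, long transcript (chr6:26139315-26139344, plus strand): tAATAAAaggtaatgcaaagggagaggaaa
HIST1H2BD, long transcript (chr6:26171548-26171577, plus strand): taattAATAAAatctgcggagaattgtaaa
FTL (chr19:49470107-49470136, plus strand): gaccaaatggaAATAAAgctttttgatgca
H2AFZ (chr4:100869245-100869274, minus strand): ggataagttcAATAAAggtcatatcccaaa
EEF1A1 (chr6:74225473-74225502, minus strand): tcactacAATAAAtgaattttaagctttaa

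Values are FPKM, fragments per kilobase of transcript scaled by the mapped fragments of the library, as the authors computed them with Cuffdiff 2. Depth was implied by the smallest step between FPKM values of genes with a single transcript, and came to 19.7 to 19.8 M (mega) fragments in the PABP libraries and 11.8 to 15.2 M in input set 3, so that 1 fragment on a gene of 1 kb was worth 0.0505 to 0.0508 FPKM and 0.066 to 0.0845 FPKM. Input set 3 was the nearest of the sets, with a mean correlation of log2(FPKM + 1) with the PABP libraries of 0.881, against 0.871 for set 2 and 0.807 for set 1. The PABP libraries correlated at 0.985 to 0.989 with each other and at 0.855 to 0.882 with those of input set 3. The 8 marker genes of K562 cells, such as GATA1 and the fetal globins, lay between 24.8 and 1788 FPKM in all 12 PABP and input libraries. The 8 markers of lymphocytes, liver, epithelium and fibroblasts did not exceed 6.25 FPKM in any of the 12. FPKM summed over genes to 918602 to 1059654 in the PABP libraries and 553453 to 563774 in input set 3. The same FPKM is therefore a smaller share of the summed FPKM in a PABP library than in input set 3. A fold change of FPKM is not a change in that share, and neither is an amount per cell. Between 13714 and 14073 genes reached 1 FPKM in a PABP library, against 15836 to 16243 in input set 3.

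Of 15199 genes with a mean of at least 1 FPKM, 2438 (16.0%) were enriched in the PABP fRIP and 2454 (16.1%) were depleted, where a call needed a log2 fold change of FPKM + 1 beyond 1 and an adjusted p under 0.05 (limma with Benjamini-Hochberg adjustment). The balance depended on the filter, since with a mean of at least 5 FPKM 2176 of 10344 genes (21.0%) were enriched and 1162 (11.2%) depleted. The median over all tested genes was 0.06 on this scale. Every PABP library lay above all 9 input libraries for 4989 genes (32.8%) and below them all for 4379 (28.8%). Classes of RNA differed in these shares. Of 10935 mRNA genes, 1795 were enriched and 1224 depleted, while of 1965 lncRNA genes 288 were enriched and 488 depleted. Of 1695 pseudogenes 289 were enriched and 567 depleted, and reads of a pseudogene cannot always be told from those of its parent gene. The mRNA class made up 90.8% ± 0.13 (SD, n = 3) of the summed FPKM in the PABP libraries and 82.9% ± 0.049 (SD, n = 3) in input set 3.

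The RNA most depleted among the lncRNAs was MALAT1 (ENSG00000251562.3, chr11:65265111-65275544, plus strand), an abundant RNA of nuclear speckles whose tail is removed by RNase P. It was at 59.3, 50.8 and 66.3 FPKM in the PABP libraries and at 3151, 3235 and 3372 FPKM in input set 3. No PABP library came near an input, and the log2 fold change was -5.77 ± 1.31 (SE; limma adjusted p = 1.44e-04). The spread of the fit comes from all fRIP targets, and MALAT1 had a large standard error there. NEAT1, the scaffold RNA of paraspeckles, was at 11.9, 15.7 and 12.02 FPKM against 95.0, 105 and 73.4 FPKM, a log2 fold change of -2.69 ± 0.26. Of the 9 tested lncRNAs on a list of nuclear lncRNAs, 5 were depleted, with a median of -1.04 (-1.84 against input set 1), and 1 was enriched. The enriched member was PVT1, a spliced and polyadenylated lncRNA, at 154, 141 and 170.4 FPKM against 46.3, 50.8 and 49.3 FPKM.

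RNAs known to work without a poly(A) tail were low in the PABP libraries, as they were in other fRIPs of the study. RPPH1 (ENSG00000259001.2, chr14:20811207-20811844, minus strand), the RNA subunit of RNase P and a product of RNA polymerase III, was at 106, 113 and 134 FPKM against 3169, 2928 and 3689 FPKM, a log2 fold change of -4.78 ± 0.22 (limma adjusted p = 5.33e-25). RMRP, the RNA of the related RNase MRP, was at 262, 308 and 297 FPKM against 2177, 1981 and 2044 FPKM. The signal recognition particle RNA RN7SL1 was at 22.5, 21.7 and 21.8 FPKM against 269.7, 174 and 231 FPKM, and TERC, the RNA of telomerase, had a log2 fold change of -3.39. These were the 4 depleted members of 6 tested on the list of RNA polymerase III and other structured RNAs, whose median was -3.06. The other two, BCYRN1 and VTRNA2-1, had log2 fold changes of 0.47 and 1.23 and were not called. Against all 9 inputs 4 members were depleted in each of the fRIPs of PABP, HUR, IMP1 and CHD4, with medians of -2.76, -3.001, -2.22 and -2.46. These 4 comparisons share their inputs. RPPH1 overlaps PARP2 on the other strand, and how the counting used strand is not given in the sources used here.

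Few small nuclear and nucleolar RNAs were tested. SCARNA2, a guide RNA of Cajal bodies, was at 63.4, 55.0 and 57.4 FPKM against 1006, 843 and 930.3 FPKM, a log2 fold change of -3.96 ± 0.22. Of 10 snoRNAs and scaRNAs tested of 28 in the table, 6 were depleted, with a median of -2.09, and SNORA76 was enriched. Its call was lost against input sets 1 and 2, and without PABP replicate 3 (log2 fold change 2.61, adjusted p = 0.0645). Of the 3 spliceosomal snRNAs tested, RNU12 of the minor spliceosome was depleted, at -1.79.

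**Figure D1:**
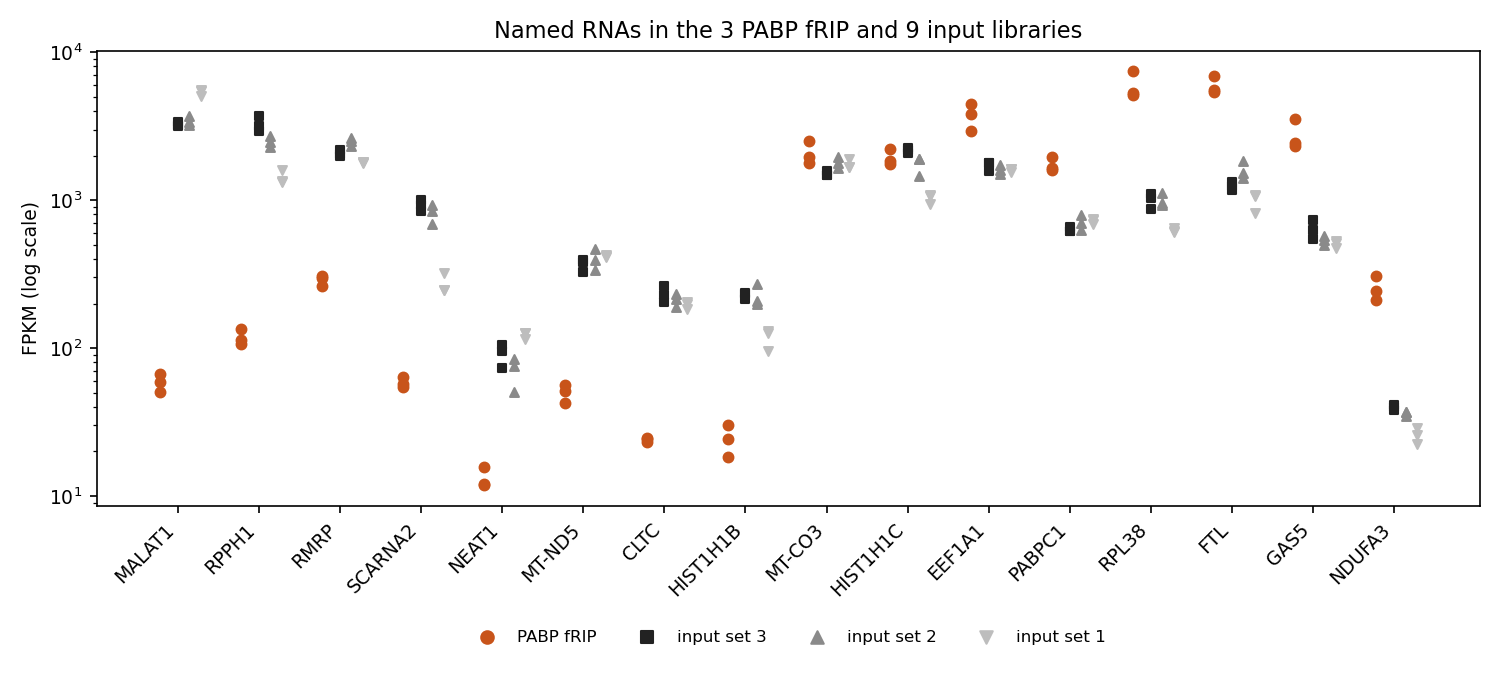
FPKM on a log scale of 16 named RNAs in the 3 PABP fRIP libraries (orange circles) and the 3 libraries each of input set 3 (black squares), set 2 (grey triangles) and set 1 (light triangles), with 1 point for each library. MALAT1 was at 3151 FPKM or more in every input library and at most 66.3 FPKM in the PABP libraries, while RPL38, FTL, GAS5 and NDUFA3 lay above every input library.

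The mRNAs of the replication-dependent histones, which package newly made DNA, were depleted as a group. Of 65 such genes 48 were tested, 39 were depleted and 1 was enriched, with a median log2 fold change of -2.12. HIST1H1B, a linker histone, was at 18.5, 24.2 and 30.4 FPKM in the PABP libraries and 214, 232 and 235 FPKM in input set 3 (log2 fold change -3.19 ± 0.28, limma adjusted p = 9.02e-15). HIST1H3F had the lowest value, at 6.53, 8.75 and 9.55 FPKM against 87.7, 93.0 and 95.0 FPKM (log2 fold change -3.34). HIST1H2BK was the enriched member, at 1450.4, 1405 and 1335 FPKM against 413, 468 and 384 FPKM (log2 fold change 1.73 ± 0.27). Many histone genes have near-identical copies, so that their reads may have been split among them. The input sets differed in histone mRNA, which took 0.735% to 2.17% of the summed FPKM over the 9 inputs and 0.651% ± 0.069 (SD, n = 3) in the PABP libraries. Against input set 1, where the share was 0.735% to 0.788%, only 8 of the 48 were depleted, 4 were enriched and the median was -0.38. Against input set 2 there were 36 depleted, with a median of -1.86, and against all 9 inputs 33 depleted, with a median of -1.45. The size of the histone depletion thus depended on the input set. It was also not particular to PABP. Against the same 9 inputs the HUR fRIP had 26 of the list depleted (median -1.08), the IMP1 fRIP 39 (median -1.60) and the CHD4 fRIP 37 (median -2.31).

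Sorting histone transcripts by their annotated 3′ end separated the depleted ones. A stem-loop was searched for in the transcript sequence as a perfect stem of 6 base pairs that opens with GG, around a loop of 4 bases that opens with TT, in the form seen in the sequences printed above. Of 24 tested transcripts that ended at most 10 bases after such a stem-loop, 23 were depleted and none was enriched, with a median of -2.67. Among all 43033 tested transcripts 8270 (19.2%) were enriched and 10588 (24.6%) depleted. Against input set 1 the median of the 24 was -0.73, and 20 of them lay below 0. Of 9 histone transcripts with no stem-loop found, 2 were enriched and 2 depleted, with a median of 0.15. Of 5 that ran past the stem-loop by 285 to 1729 bases, 1 was depleted and the median was 0.72, or -0.02 against input set 2. For 22 more the annotation used here held no sequence, and 18 of these were depleted. Over all 40217 tested transcripts with a sequence, 27 (0.0671%) ended at a stem-loop of this form, and 26 of them were depleted. The 3 that the histone list did not hold were HIST1H1T, HIST1H2AA and HIST1H2BA, which are also histone genes. The exception to the depletion was HIST1H1C, at 1837, 2203 and 1756 FPKM against 2074, 2245 and 2183 FPKM, whose groups overlapped (log2 fold change -0.17 ± 0.20).

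Some histone genes have a short transcript that ends at the stem-loop and a longer transcript that ends downstream. For HIST1H2AC the short transcript was at 292, 333 and 373 FPKM in input set 3 and below 0.001 FPKM in each PABP library, while the long transcript was at 265, 303 and 222 FPKM in the PABP libraries and 142, 153 and 112 FPKM in input set 3. For HIST1H2BD the short transcript was at 46.1, 44.4 and 51.1 FPKM against 165, 161 and 154 FPKM (log2 fold change -1.74 ± 0.25). Its long transcript went the other way, at 69.5, 70.6 and 65.0 FPKM against 30.1, 39.1 and 40.6 FPKM, with a log2 fold change of 0.90 ± 0.22 that did not reach the fold threshold. For HIST1H2BC the short transcript was at 31.2, 36.1 and 36.9 FPKM against 214, 223 and 233 FPKM, and the long transcript at 80.6, 74.5 and 64.8 FPKM against 70.6, 66.6 and 60.7 FPKM. In HIST1H2BJ the transcript ending at the stem-loop was at 99.6, 79.02 and 129.7 FPKM in input set 3 and below 0.001 FPKM in each PABP library, and the transcript ENST00000606923.1 was at 213, 208 and 221 FPKM against 78.3, 50.0 and 65.5 FPKM. The other two tested transcripts of HIST1H2BJ, ENST00000607124.1 and ENST00000541790.1, had log2 fold changes of 0.64 and 0.51 and were not called. HIST1H3J, the fifth gene with tested transcripts of both kinds and a sequence for each, differed from these 4. Its transcript ending at the stem-loop was at 13.4, 15.5 and 17.7 FPKM against 89.0, 135 and 112 FPKM (log2 fold change -2.76 ± 0.52), and ENST00000479986.1, with no stem-loop found, was depleted alike, at 1.06, 1.54 and 1.26 FPKM against 11.1, 19.1 and 16.2 FPKM (log2 fold change -2.82 ± 0.60). In input set 1 the HIST1H2BD short transcript was at 49.5, 50.0 and 49.5 FPKM, so it overlapped the PABP libraries. The HIST1H2BJ transcript ending at the stem-loop was at only 2.98, 0.00478 and 0.996 FPKM there. For HIST1H2AC, HIST1H2BC and HIST1H3J the transcript ending at the stem-loop lay above every PABP library in input set 1 too. Values of transcripts are estimates by which Cuffdiff divided reads that transcripts of a gene share, so a value near 0 is an estimate and not an absence of reads.

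**Figure D2:**
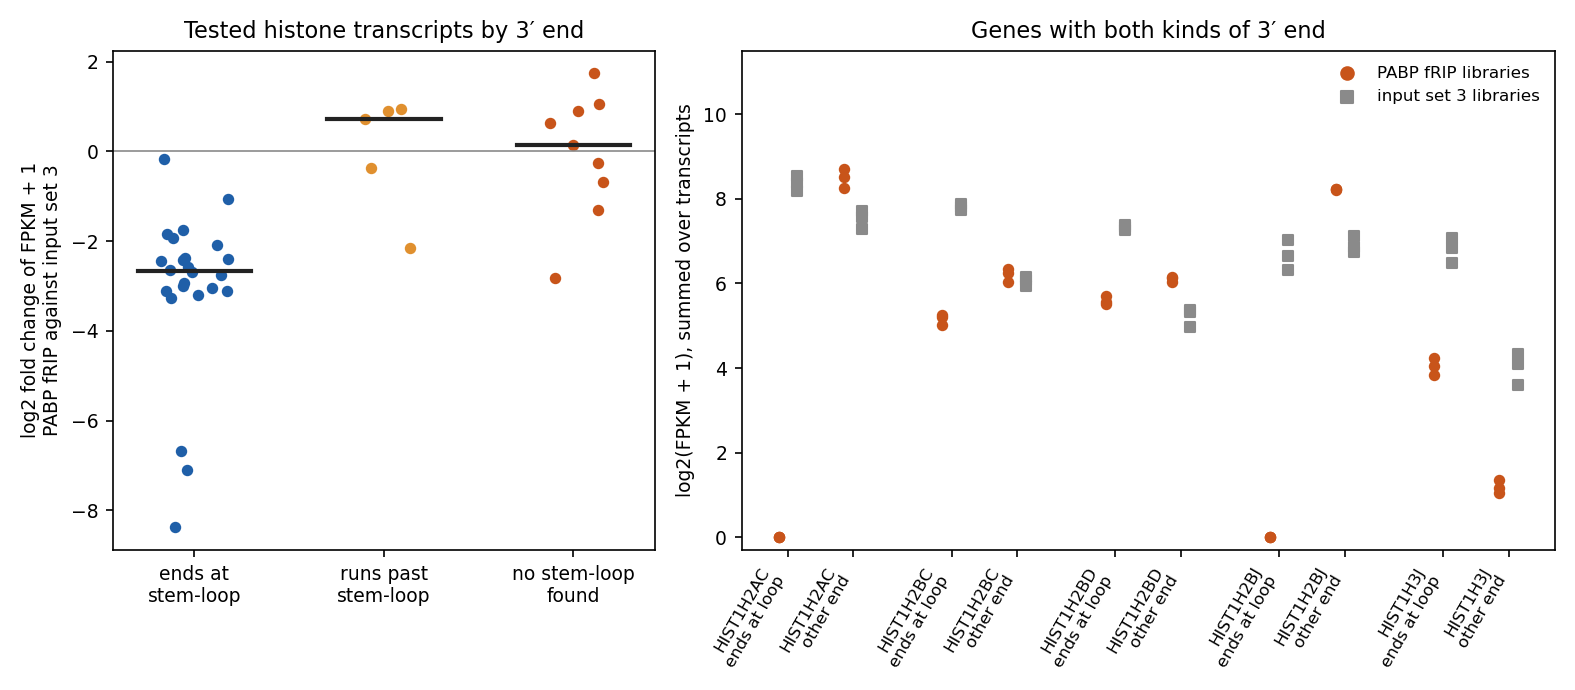
Left, log2 fold change of FPKM + 1 in the PABP fRIP against input set 3 for each tested histone transcript with a sequence, by its 3′ end, with the median as a bar. Right, log2(FPKM + 1) in each PABP library (circles) and each input set 3 library (squares) for the transcripts of the 5 genes with both kinds of end, summed by kind. Transcripts ending at the stem-loop were depleted in 23 of 24 cases, and the other transcripts were level with or above the input in 4 of the 5 genes and depleted in HIST1H3J.

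The replication-independent histones, whose mRNAs carry poly(A) tails, went the other way. Of 7 tested genes 6 were enriched and none was depleted, with a median of 1.29. H2AFZ, the variant H2A.Z, was at 919, 874 and 1039.8 FPKM against 369.9, 343 and 369 FPKM, a log2 fold change of 1.38 ± 0.13. H1FX was at 82.4, 94.3 and 98.3 FPKM against 27.7, 30.8 and 26.3 FPKM. H3F3B, a gene of the variant H3.3, was at 1013, 952 and 939 FPKM against 514, 464 and 463 FPKM, and its log2 fold change of 1.01 fell to 0.98 or 0.99, under the threshold, without PABP replicate 1 or without input replicate 2 or 3.

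The presence of a poly(A) signal hexamer within 40 bases of the annotated end separated mRNA genes little. It was searched as AATAAA or ATTAAA on the transcript strand. Of 10828 mRNA genes with a leading coding transcript of known sequence, 56.8% held AATAAA, 13.5% held ATTAAA only and 29.7% held neither. Among those with AATAAA 16.8% were enriched and 9.95% depleted, and among those with neither 16.0% were enriched and 14.3% depleted. Of 27 replication-dependent histone genes with a sequence, 23 held neither hexamer.

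Cytosolic ribosomal protein mRNAs were the most uniformly enriched list. All 79 were tested and all 79 were enriched, with a median log2 fold change of 1.94 and a range of 1.19 to 2.56. They took 25.2% ± 2.49 (SD, n = 3) of the summed FPKM in the PABP libraries and 10.9% ± 0.82 (SD, n = 3) in input set 3. Every PABP library lay above all 9 inputs for all 79 of them. RPL38 (ENSG00000172809.8, chr17:72199721-72206794, plus strand) of the large subunit was at 5281, 5125 and 7408 FPKM against 1105, 873 and 1034 FPKM, a log2 fold change of 2.55 ± 0.27 (limma adjusted p = 6.50e-12). RPS21 of the small subunit was at 6897, 6940.4 and 9052 FPKM against 1596, 1501 and 1728 FPKM. RPL41, the shortest protein of the ribosome, had the highest fold change at 2.56, and RPL4 the lowest at 1.19. Ribosomal protein genes have many processed pseudogenes, which can take reads from them.

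Translation factors and other mRNAs with a 5′ terminal oligopyrimidine tract moved in the same direction, less uniformly. Of 24 tested 14 were enriched and 1 was depleted, with a median of 1.09. TPT1, which encodes the translationally controlled tumor protein, was at 2125, 2050.0 and 2781 FPKM against 587, 533 and 612 FPKM (log2 fold change 1.99 ± 0.15). GNB2L1, which encodes the ribosomal scaffold RACK1, was at 4637, 4471 and 6352 FPKM against 1586, 1525 and 1701 FPKM. EEF1A1, the elongation factor that delivers aminoacyl-tRNA, was at 3829, 2934 and 4483 FPKM against 1790.2, 1565 and 1772 FPKM, with a log2 fold change of 1.11 ± 0.18 that was 0.97 without PABP replicate 3. The depleted member was EIF3A, the largest subunit of initiation factor 3, at 47.0, 42.4 and 41.3 FPKM against 123, 118 and 97.8 FPKM (log2 fold change -1.35 ± 0.15). The other subunits of the factor on the list had values from 0.57 for EIF3D to 1.49 for EIF3F.

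Nuclear-encoded subunits of the respiratory chain were enriched too. Of 76 tested 59 were enriched and none was depleted, with a median of 1.66. NDUFA3, an accessory subunit of complex I, was at 211, 242 and 307 FPKM against 41.3, 37.9 and 39.9 FPKM (log2 fold change 2.63 ± 0.29, limma adjusted p = 2.88e-11). UQCRH of complex III was at 2319.6, 2052 and 2606 FPKM against 717, 630.1 and 693 FPKM. The member with the lowest value, NDUFS1, the largest subunit of complex I, was at 47.1, 45.8 and 39.7 FPKM against 84.8, 77.4 and 77.3 FPKM and was not called (log2 fold change -0.84). The list took 4.56% ± 0.055 (SD, n = 3) of the summed FPKM against 2.496% ± 0.090 (SD, n = 3).

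The subunits encoded by mitochondrial DNA did not follow the nuclear-encoded ones. Human mitochondrial mRNAs carry short poly(A) tails added inside the organelle, where the cytoplasmic PABPs are not found. Of 13 tested mRNAs 8 were depleted and none was enriched, with a median of -1.44. MT-ND5 was at 51.2, 42.6 and 56.0 FPKM against 383, 394 and 326 FPKM (log2 fold change -2.86 ± 0.22). MT-CO3 was at 1951, 1769 and 2513 FPKM against 1482, 1582 and 1472 FPKM and MT-CO2 at 437, 423 and 535 FPKM against 400.2, 487 and 423 FPKM. Neither was called, and the MT-CO2 groups overlapped. The depletion was shared with other fRIPs. Against all 9 inputs 8 of the 13 were depleted in the PABP fRIP (median -1.48), 12 in that of HUR (median -1.50), 12 in that of IMP1 (median -1.42) and 13 in that of CHD4 (median -2.36). Mitochondrial rRNAs and tRNAs, of which 7 of 13 tested were depleted, took 0.386% ± 0.14 (SD, n = 3) of the summed FPKM against 5.91% ± 0.41 (SD, n = 3).

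Host lncRNAs of snoRNAs, which are spliced, exported and polyadenylated while the snoRNAs are cut from their introns, were enriched in 13 of 17 cases, with 1 depleted and a median of 1.65. GAS5 was at 2439, 2308 and 3531 FPKM against 629, 549 and 738 FPKM, a log2 fold change of 2.09 ± 0.20 (limma adjusted p = 1.26e-13). ZFAS1 was at 1162, 1140.3 and 1643 FPKM against 257, 200.1 and 289 FPKM, and SNHG5 at 3576, 3465 and 4672 FPKM against 839, 793 and 897 FPKM. The hosts took 1.38% ± 0.14 (SD, n = 3) of the summed FPKM against 0.647% ± 0.037 (SD, n = 3). The enrichment was shared with the CHD4 fRIP. Against all 9 inputs 13 of the 17 were enriched in the PABP fRIP (median 1.87) and 12 in that of CHD4 (median 1.37). In the HUR fRIP 2 were enriched and 13 depleted (median -1.50), and in the IMP1 fRIP 2 and 10 (median -1.05). SNHG3 was depleted, at 226, 226 and 213 FPKM against 544, 535 and 481 FPKM (log2 fold change -1.22). It overlaps RCC1 on the same strand, and its value was -0.995 against all 9 inputs and -0.55 against input set 1. Spliced lncRNAs as a class (1630 tested) had 272 enriched, 381 depleted and a median of -0.004, and lncRNAs with 1 exon (328 tested) had 15 enriched, 106 depleted and a median of -0.54.

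The gene that encodes the main cytoplasmic PABP was itself enriched. PABPC1 mRNA was at 1637, 1603 and 1961 FPKM against 618, 623 and 658 FPKM, a log2 fold change of 1.45 ± 0.13 (limma adjusted p = 2.02e-14), and its 5′ untranslated region is known to hold an A-rich element that PABP binds. PABPN1, the nuclear PABP, was at 186, 222 and 220.4 FPKM against 90.7, 87.2 and 95.2 FPKM (log2 fold change 1.19 ± 0.14). PABPC4 was at 247, 228 and 227 FPKM against 149, 144 and 128 FPKM and PABPC3 at 4.37, 3.72 and 5.10 FPKM against 2.99, 2.09 and 2.17 FPKM, with log2 fold changes of 0.73 and 0.66 below the threshold. PABPC1L was depleted, at 21.1, 21.0 and 25.2 FPKM against 84.5, 90.1 and 108 FPKM (log2 fold change -2.02 ± 0.46), although its level over the 9 inputs ranged from 21.4 to 121 FPKM. PABPC4L, PABPC5 and PABPN1L did not reach a mean of 1 FPKM and were not tested.

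The mRNAs of proteins that work with PABP showed no common direction. Of 17 partners in translation 4 were depleted and none was enriched (median 0.07). The depleted ones were ATXN2L, ATXN2, LARP4 and EIF4G3, from -1.65 for ATXN2L to -1.06 for EIF4G3. The list's median changed sign, to -0.06, against all 9 inputs, and was also below 0 against input set 2 and without PABP replicate 2 or input replicate 3. Against each of sets 1 and 2 and all 9 inputs 1 partner was enriched. PAIP2, an inhibitor of PABP, was at 97.4, 106 and 100.3 FPKM against 59.8, 63.8 and 49.4 FPKM, and EIF4A1, the helicase of the cap complex, at 407, 356 and 346 FPKM against 317, 302 and 284 FPKM. Of 21 mRNAs of the deadenylation machinery CNOT4 and PAN2 were depleted and none was enriched (median 0.05). The median was below 0 against all 9 inputs (-0.07), input set 1 (-0.16) and input set 2 (-0.09, with 1 enriched), under 3 other filters on low values, and without PABP replicate 1 or 2 or input replicate 3 (-0.02 each). The depleted numbered 1 without PABP replicate 2 and 3 without input replicate 3. Of 19 mRNAs of cleavage and polyadenylation factors WDR33 and PCF11 were depleted and none was enriched (median -0.18). Against input set 1 there were 2 enriched and the median was 0.07.

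Other lists lay between these extremes. Of 31 proteasome mRNAs 6 were enriched and none depleted (median 0.56), with PSMA7 highest at 1.30, and 12 were enriched against all 9 inputs and 17 against input set 1. Of 14 ER chaperone mRNAs 3 were enriched, which were SDF2L1, MANF and PPIB (median 0.04). There were 2 without PABP replicate 3 or without input replicate 2. Without PABP replicate 3 there was also 1 depleted and the median was -0.06, and without input replicate 1 it was -0.003. CANX, a membrane chaperone, was at 445, 368 and 596 FPKM against 505, 448 and 484 FPKM, and the groups overlapped. Of 23 immediate early and AU-rich mRNAs 2 were enriched, JUND at 1.34 and CDKN1A at 1.14 (median 0.43). Against input set 2 there were 4 enriched and 1 depleted, the median was 0.18 and JUND was at 0.74. The enriched numbered 1 without PABP replicate 3 or input replicate 1, and 3 without PABP replicate 1 or input replicate 2.

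Among 16 globin and erythroid mRNAs 5 were enriched and none depleted (median 0.93). FTL, the ferritin light chain, was at 5553, 5365 and 6886 FPKM against 1239.6, 1172 and 1320.5 FPKM (log2 fold change 2.25 ± 0.17), and FTH1, the heavy chain, at 759, 831 and 1289.8 FPKM against 154, 173 and 226 FPKM. HBG2, a fetal globin with the near-identical copy HBG1, was at 1674, 1642 and 1657 FPKM against 949, 1014 and 898 FPKM, but with a log2 fold change of 0.80 ± 0.73 it was not called in the fit of all libraries. The count was 8 in a fit of the 6 libraries alone, with or without the replicate block, and ranged from 3 to 11 over the alternatives, with 3 without PABP replicate 3 or input replicate 1. Against input set 1, input set 2 or all 9 inputs, and without PABP replicate 2, PABP replicate 3 or input replicate 3, 1 member was depleted. TFRC, the transferrin receptor, was at 114, 134 and 136 FPKM against 244, 285 and 228 FPKM (log2 fold change -0.97).

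Zinc finger and centrosome mRNAs had medians below 0. Of 388 zinc finger mRNAs with a name in ZNF, 13 were enriched and 75 depleted (median -0.40), with ZNF460 lowest at -2.41 and ZNF428 highest at 1.63. Of 55 mRNAs of centrosome proteins and kinesins 1 was enriched and 19 were depleted (median -0.69). KIF2C, a microtubule depolymerase, was at 58.7, 62.3 and 48.3 FPKM against 139.7, 142 and 134 FPKM, and KIF9 was the enriched member at 1.62. The call of KIF2C was lost against input sets 1 and 2, with log2 fold changes of -0.945 and -0.995 under the threshold.

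**Figure D3:**
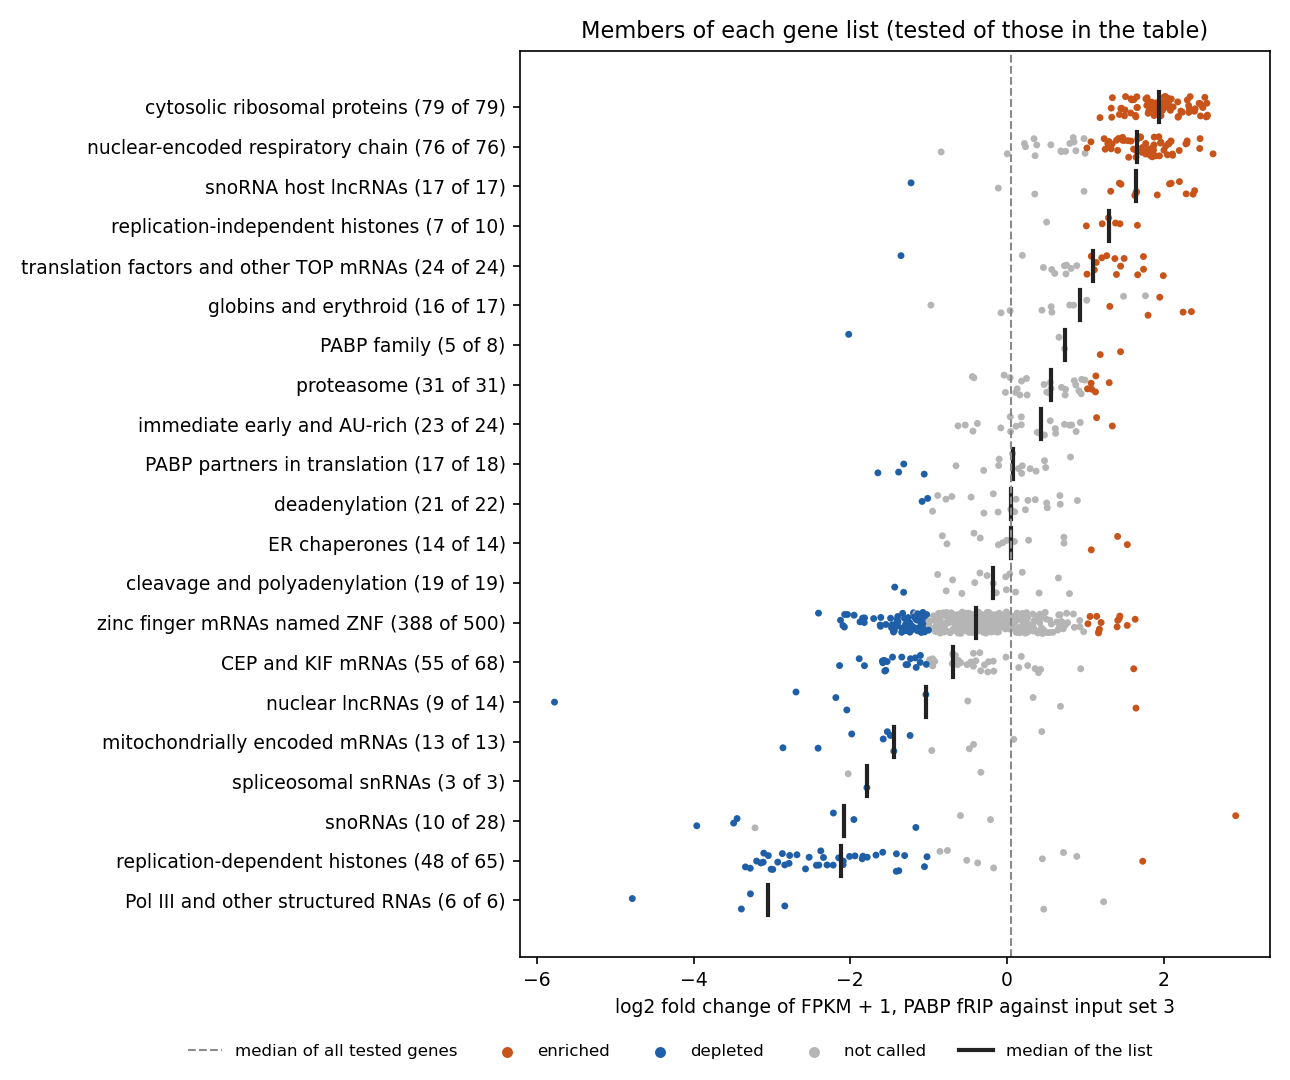
Log2 fold change of FPKM + 1 in the PABP fRIP against input set 3 for every tested member of each gene list, coloured by call, with the median of the list as a bar and that of all tested genes as a dashed line. Every ribosomal protein mRNA was enriched, and the medians of the RNA polymerase III list and the replication-dependent histones were -3.06 and -2.12.

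Among mRNA genes of at least 10 FPKM with every PABP library above all 9 inputs, the 10 with the largest fold change were CTD-2369P2.12, EIF4EBP3, SPRR2D, NDUFA3, IFITM2, MYEOV2, RPL41, RPL27, RPL38 and RPL28. CTD-2369P2.12 shares its strand and position with FDX1L and RAVER1, and EIF4EBP3 with a readthrough gene, so their reads cannot be assigned with certainty. SPRR2D varied between the PABP libraries, at 31.3, 27.2 and 73.8 FPKM. Its call was lost against input set 1 (log2 fold change 1.56, limma adjusted p = 0.0879). IFITM2, an interferon-induced membrane protein that blocks virus entry, was at 469.8, 501 and 635 FPKM against 109, 75.6 and 77.4 FPKM (log2 fold change 2.61 ± 0.38), and it has near-identical paralogs. The 10 lowest, chosen in the same way below the inputs, held several genes that lie across a longer gene on the other strand, such as the olfactory receptors OR51I2 and OR52D1 within the span of the fetal and embryonic globin genes. Among those without such an uncertainty were the histones HIST2H3D and HIST1H1B. CLTC (chr17:57697045-57774317, plus strand), the clathrin heavy chain, was at 24.3, 24.8 and 23.2 FPKM against 228, 264 and 205 FPKM, a log2 fold change of -3.21 ± 0.13 (limma adjusted p = 9.73e-28), and PTRH2 overlaps it on the other strand. The 5 highest lncRNAs by the same rule were RP11-462G2.1, RP11-307P5.1, RP1-90J20.8, RP11-295G20.2 and RP11-410L14.2, with log2 fold changes of 2.63 to 2.44. Their reads are uncertain for all but RP11-462G2.1, since RP11-307P5.1 overlaps SAMD5 and RP11-410L14.2 overlaps RP11-410L14.1 on the same strand, and RP1-90J20.8, RP11-295G20.2 and RP11-410L14.2 overlap NQO2, TSNAX and VPS13B on the other. MIR663A and RP11-544A12.4 were among the 5 lowest with MALAT1, RPPH1 and SCARNA2. MIR663A overlaps RP3-410C9.2 and RP11-544A12.4 overlaps NUP214 on the other strand.

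Transcript length separated enriched from depleted mRNAs. Across 10840 mRNA genes the Spearman correlation of the log2 fold change with the length of the leading coding transcript was -0.521 ± 0.004 (SD over the 3 PABP libraries). These are correlations across genes, which share their libraries and are not independent, so no p is given. The coding sequence correlated at -0.562, the 3′ untranslated region at -0.319, the 5′ untranslated region at -0.206, the number of exons at -0.379 and GC content at 0.266. Of 1407 genes with transcripts over 500 and up to 1000 bases 46.6% were enriched and 8.67% depleted (median 0.92). Of 2191 genes over 2000 and up to 3000 bases 8.90% were enriched and 5.80% depleted (median 0.27). Of 548 genes over 8000 bases 1.46% were enriched and 42.3% depleted (median -0.87). The 250 genes of up to 500 bases did not continue the trend, with 47.2% enriched and 15.2% depleted (median 0.84). Without the ribosomal protein and respiratory chain mRNAs the median of this class was 0.48, and that of the 500 to 1000 base class was 0.84. No gene list was set beside mRNAs of its own length, so length and membership of a list cannot be told apart here. FPKM divides by length, and for short transcripts that division depends on the fragment lengths assumed, whose part in the result was not tested. The authors also report that sonication sheared the RNA and that PABP coverage peaked at transcript 3′ ends. The part of this in the length relation was not tested.

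Within classes of similar total length the parts of the mRNA went in opposite directions. In the 4 classes between 1000 and 6000 bases, the mean correlation with the length of the coding sequence was -0.41 to -0.44. With the length of the 3′ untranslated region it was 0.28 to 0.35 in the same classes, where a longer coding sequence leaves a shorter untranslated region. Runs of A in the transcript separated genes little. Among transcripts of 1000 to 2000 bases the median was 0.70 for 1908 genes whose longest run was at most 6 bases and 0.78 for 58 genes with a run of 12 or more. In the class of 4000 to 6000 bases these medians were -0.29 and -0.21.

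The length relation ran the other way for HUR and IMP1, 2 other mRNA-binding proteins of the study, and the same way for the chromatin remodeler CHD4. Each of these was compared with all 9 inputs, which the comparisons share. The mean correlation with length over the 3 libraries of a protein was -0.521 for PABP, -0.406 ± 0.052 (SD) for CHD4, 0.313 ± 0.028 (SD) for IMP1 and 0.411 ± 0.033 (SD) for HUR. The HUR libraries were shallower, at 4.97 to 9.01 M fragments.

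**Figure D4:**
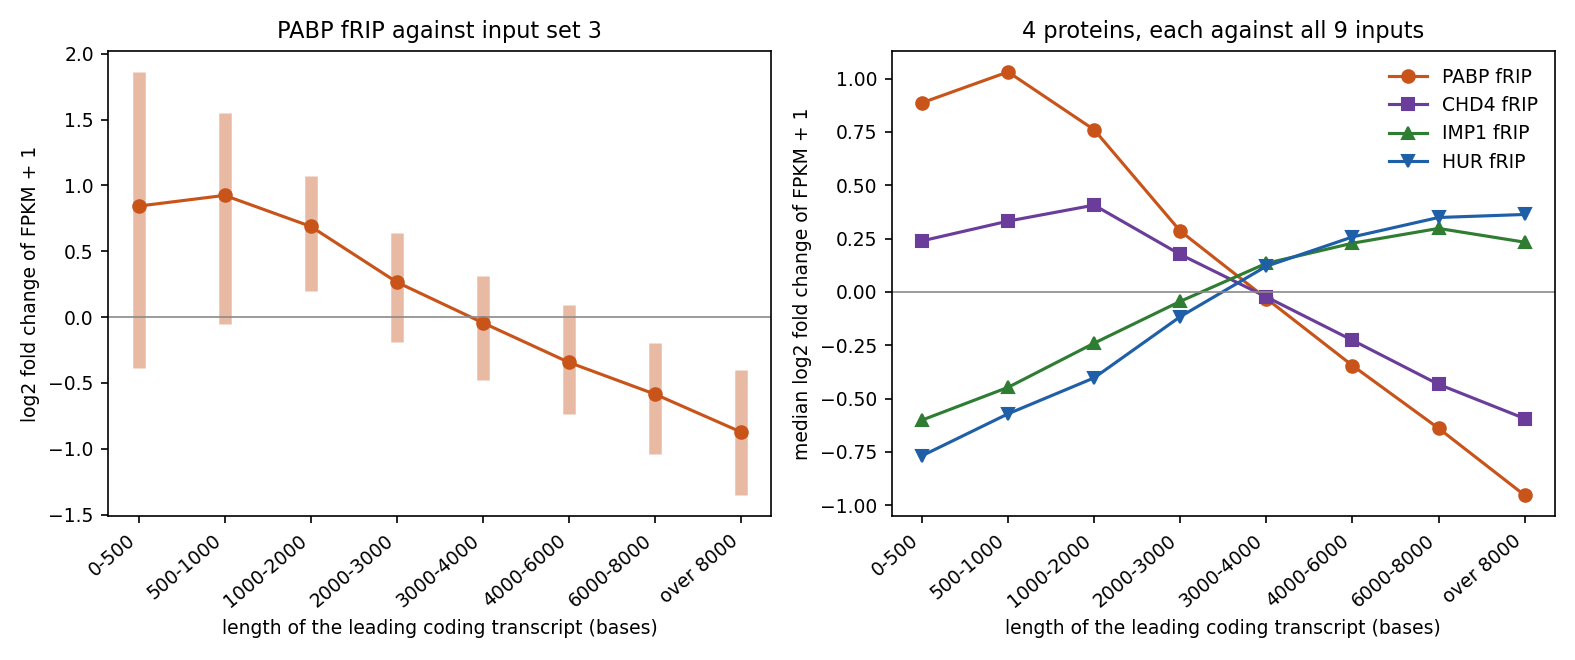
Left, median (line) and quartiles (bars) of the log2 fold change of FPKM + 1 in the PABP fRIP against input set 3 for mRNA genes by length of the leading coding transcript. Right, the medians of the same genes for the fRIP of PABP, CHD4, IMP1 and HUR, each against all 9 inputs. The PABP median was 0.89 up to 500 bases and fell from 1.03 at 500 to 1000 bases to -0.95 over 8000 bases, while the HUR median rose from -0.57 to 0.36.

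Direct contrasts between the fRIPs used the same fit. Against HUR, 3919 of 16888 tested genes (23.2%) were higher in the PABP fRIP and 5303 (31.4%) lower. Against IMP1, 3328 of 14254 (23.3%) were higher and 2317 (16.3%) lower. Against CHD4, 1156 of 14156 (8.17%) were higher and 356 (2.51%) lower. Of 79 ribosomal protein mRNAs 77 were higher in PABP than in HUR fRIP, 78 higher than in IMP1 and 66 higher than in CHD4, and none was lower, with median differences of 4.23, 3.47 and 1.62. Of 76 respiratory chain mRNAs 73, 69 and 53 were higher, and none was lower. Of 17 snoRNA hosts 13, 12 and 5 were higher, with 1 lower than in HUR. Of the replication-dependent histones, 5 of 50 tested were higher and 11 lower than in HUR. Of 48 tested against CHD4 22 were higher and none was lower, and of 49 tested against IMP1 6 were higher and 3 lower. MALAT1 was lower in the PABP fRIP than in HUR and IMP1, by log2 differences of -7.75 and -3.32 (limma adjusted p = 5.11e-07 and 0.0227), and its difference from CHD4 of -2.87 ± 1.31 did not pass the threshold (limma adjusted p = 0.0805). For PABPC1 the differences were 1.67, -0.45 and 0.89. For RPPH1 they were -1.03, 0.24 and -0.60.

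At the level of transcripts, those annotated as retaining an intron were depleted. Such transcripts carry an unspliced intron and are often held in the nucleus. Of 5896 tested 3647 (61.9%) were depleted and 625 (10.6%) enriched, with a median of -1.46. Of 22311 protein coding transcripts 3321 (14.9%) were depleted and 4681 (21.0%) enriched, with a median of 0.23. Of 3204 transcripts annotated as targets of nonsense-mediated decay 558 (17.4%) were depleted and 759 (23.7%) enriched. With a mean of at least 5 FPKM required, the depleted transcripts of all types numbered 1946 and the enriched 5403. In 2973 genes with a tested transcript of each kind, the median of the retained intron transcripts was below that of the coding ones in 2330 (78.4%), with a median difference of -1.18 (retained minus coding).

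Taken per gene, retained intron transcripts made up a mean of 10.2%, 10.1% and 10.9% of the FPKM of 6478 genes in the PABP libraries and 18.04%, 18.1% and 18.8% in input set 3. The groups did not overlap and differed by -7.92 percentage points (two-sided exact permutation p = 0.1, the smallest that 3 against 3 libraries allow). Against all 9 inputs, whose mean share was 20.05% ± 2.14 (SD, n = 9), the difference was -9.64 points (two-sided exact permutation p = 0.00455, the smallest that 3 against 9 allow). That test takes all 12 libraries as exchangeable, without regard to replicate numbers or to the input sets, which differed, with shares of 22.4% to 23.6% in set 1 and 18.6% to 19.3% in set 2. The share of transcripts of nonsense-mediated decay was 14.1% ± 0.095 (SD, n = 3) against 13.1% ± 0.15 (SD, n = 3).

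**Figure D5:**
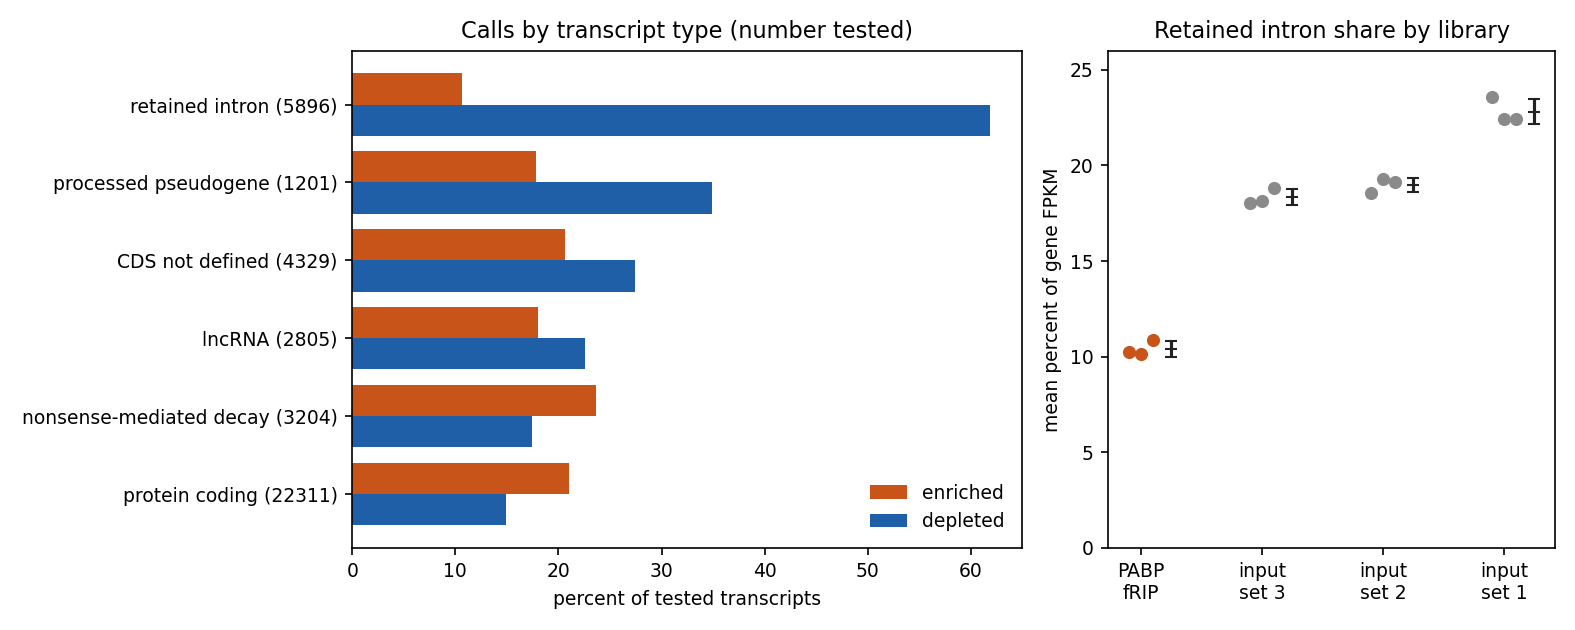
Left, percent of tested transcripts of 6 annotated types that were enriched or depleted in the PABP fRIP against input set 3. Right, mean share of gene FPKM from retained intron transcripts in each library, with the mean and SD of each group beside the points. Retained intron transcripts were depleted in 61.9% of cases, and their share was 10.1% to 10.9% in the PABP libraries and at least 18.04% in every input library.

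In 871 genes, transcripts of the same gene that reached 5 FPKM in a group were called in opposite directions. How many genes had 2 such transcripts is not given here, so 871 cannot be read as a share. Of all tested transcripts 19.2% were enriched and 24.6% depleted. The genes with the largest gaps included CHD4, TXNIP, ASNS and EPRS. In ASNS, asparagine synthetase, the coding transcript ENST00000437628.1 was at 189, 155 and 219 FPKM in the PABP libraries and below 0.001 FPKM in input set 3, and the retained intron transcript ENST00000487714.1 was at 5.53, 5.85 and 5.87 FPKM in input set 3 and at most 0.516 FPKM in the PABP libraries. Such opposite values can also come from how the estimate divides shared reads between transcripts, whose part was not tested.

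In exact permutation tests, two-sided and on log2(FPKM + 1), GAS5, FTL and PABPC1, which were not chosen for lying beyond all inputs, each had p = 0.00455 against the 9 inputs, and HBG2 had p = 0.0636, with replicate numbers and input sets again left out of account. Against the 3 libraries of input set 3 each of these had an exact permutation p of 0.1, the smallest that design allows. For 3 against 9 the smallest is 0.00455, which needs every PABP library beyond all 9 inputs on the same side. Of the 15199 tested genes 4989 (32.8%) lay above them all and 4379 (28.8%) below. This p therefore does not set GAS5, FTL and PABPC1 apart from other genes.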

How the data were processed

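The authors sequenced paired-end libraries, aligned reads with TopHat to hg19, and computed FPKM with Cuffdiff 2 over GENCODE v18 genes and transcripts; their processing notes also name CASAVA 1.4 and Cuffnorm. The deposited FPKM tables held 48453 genes and 185661 transcripts, and 46055 and 172143 of these matched GENCODE v44 on the same assembly by identifier (76721 transcripts with the same version), which supplied classes, coordinates and sequences. Where genes shared a symbol, the row with the highest mean was kept. The authors' tables of tests were not used, and small RNAs without rows were not analysed here.

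One limma 3.58.1 fit (R 4.3.3) with an intensity trend on log2(FPKM + 1) held all 79 libraries, with a mean for each of 24 fRIP targets and each input set. Genes needed a mean of at least 1 FPKM over the 2 groups compared. On data simulated for 15199 genes of this comparison, 95% of changes of 1.5 and 98% of changes of 2.5 (log2) were called. The simulation used normal noise and placed the changes only in genes well above 1 FPKM in input set 3. Recovery near the filter of 1 FPKM was therefore not tested. Other steps used Python 3.11.15 with pandas 2.3.3 and scipy 1.17.1. Members and lists were chosen with earlier results of these data known. Genes were named by rule: the 10 mRNAs and 5 lncRNAs with the largest change in each direction, with every PABP library beyond all 9 inputs and at least 10 FPKM; the extremes and the most abundant members of each list; all PABP genes; MALAT1, NEAT1, XIST, GAS5, EEF1A1 and MYC; and the 5 genes with the most opposed transcripts, of which 1 is not reported here. Other list members were named after their values were seen. The study's methods describe biological replicates made on separate dates from separate lysates, and no source used here says whether the cultures were separate. Deviations of same-numbered PABP and input libraries from their group means correlated at 0.127, 0.102 and 0.199, all over 0.1, so that replicate numbers count as pairs here, on the data's evidence only. Alternatives were other pseudocounts, filters, centring, input sets, a replicate block, fits of 6 libraries, and leaving out each library.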

Additional observations from a re-analysis of the deposited data

How the results depend on the processing

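No named gene with a call changed direction under any alternative. The medians of the lists of translation partners, deadenylation, cleavage and polyadenylation and ER chaperones, all near 0, changed sign under some. Depleted transcripts outnumbered enriched ones except when values were centred (10292 enriched, 9317 depleted) and when a mean of at least 5 FPKM was required. The genes enriched numbered 2176 to 3275 over pseudocounts, filters, centring, input sets and fits, and 2238 to 2533 with 1 library left out. The genes depleted numbered 2398 to 2472 with 1 library left out, up to 3130 against input set 1, and 1162 with a mean of at least 5 FPKM. That filter gave 5403 transcripts enriched and 1946 depleted, against 7209 to 7796 and 9892 to 10270 with 1 library left out, and a length correlation of -0.568 (-0.523 to -0.517 with 1 left out). The retained intron difference was -8.16 to -7.68 points with 1 library left out and -9.64 against all 9 inputs (exact permutation p = 0.00455). Genes higher than in HUR, IMP1 and CHD4 fRIP numbered 3835 to 3971, 3252 to 3396 and 924 to 1331 with 1 library left out. With a pseudocount of 0.1 FPKM 616 were lower than in CHD4 fRIP and 1167 higher. With the replicate block there were 2471 genes enriched and 2491 depleted in the 6 libraries, and 2436 and 2454 in the fit of all 79, an alternative chosen after seeing the data; the block in the fit of all 79 ended no call of a named gene, and the call of SNORA71A was lost in the 6 libraries with the block (adjusted p = 0.0578, limma) and without it (0.109). Of 73 named genes with a call, 64 kept it in every alternative, and 9 lost it in some: SPRR2D, EEF1A1, H3F3B, SNHG3, PSMA1, JUND, KIF2C, SNORA76 and SNORA71A. Counts or medians of several lists, such as the histones, proteasome and globins, moved with the input set; the cause was not tested. Depth limits genes near 1 FPKM, where 1 fragment weighs most.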
